A study of Mus musculus with 12 samples.

Results

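Pycard, Casp1, Casp4, Il18 and Nlrp6 are 5 genes of the inflammasome pathway, chosen by name as those of the gut epithelium, and they were followed here among the 22377 genes listed in RNA sequencing of whole mouse colon. A gene's value was the sum of FPKM (sequenced fragments of a transcript, divided by its length and by the size of the library) over its listed transcripts in a library. The 12 libraries, by treatment label, were 4 of FGF1 (fibroblast growth factor 1, a secreted growth factor), 4 of DSS (dextran sulfate sodium, which injures the colon lining) and 4 of control. The DSS libraries carried another code in their titles, and their group comes from the treatment label. The labels give neither strain, age, dose nor duration, do not say whether FGF1 mice also received DSS, and do not say that libraries came from separate animals, so p-values measure only the spread between these samples.

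An inflammasome is a protein assembly that cells build when a sensor detects microbial products or damage. A sensor such as NLRP6 recruits the adaptor ASC, encoded by Pycard, which gathers caspase-1. Caspase-1 cuts the precursor of interleukin-18 into its active form and cuts gasdermin D, which opens pores in the membrane. Mouse caspase-11, encoded by Casp4, binds lipopolysaccharide inside the cell and also cuts gasdermin D. In the colon, epithelial cells are known to hold interleukin-18 precursor at rest. Messenger RNA levels do not show whether any of these proteins was cut or assembled.

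All 5 members were expressed in every library and passed the filter of at least 1 FPKM in at least 4 libraries, as did 12578 genes in all. By group mean the order of levels was the same in the 3 groups. Casp1 had the highest mean, with 77.1 FPKM in FGF1, 65.1 in DSS and 62.9 in control, followed by Nlrp6, Pycard, Il18 and Casp4. The ranges of Casp1 and Nlrp6 and those of Nlrp6 and Pycard overlapped in each group, and those of Il18 and Casp4 in DSS and control, so the order of these neighbours does not stand beyond the spread. The median level of a member lay between the 67.2nd (Casp4) and the 92.3rd (Casp1) percentile of the genes tested. Epithelial markers were abundant, with Epcam at 857 ± 41.5 FPKM in FGF1, 840 ± 102 in DSS and 726 ± 62.0 in control (SD, n = 4 each). Bulk RNA cannot assign a transcript to a cell type, and fewer cells of a type and less RNA per cell cannot be told apart in it.

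No member changed at an adjusted p under 0.05 in any comparison (limma on log2(FPKM + 1), Benjamini-Hochberg adjustment over all genes tested). FGF1 against DSS called 0 of 5 members, beside 0.0557% of all genes. FGF1 against control called 0 of 5, beside 0.0795%. DSS against control called 0 of 5, beside 12.3%. Pycard was the 1 member with an unadjusted p under 0.05 in each of the 3 comparisons, where 12.4% (FGF1 against DSS), 13.9% (FGF1 against control) and 27.7% (DSS against control) of all genes had one. The median log2 fold change of the members was 0.16 in FGF1 against DSS, 0.29 in FGF1 against control and 0.16 in DSS against control, beside 0.05, -0.04 and -0.07 over all genes. The FGF1 comparisons share the FGF1 libraries, and each pair of comparisons shares a group.

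**Figure D1:**
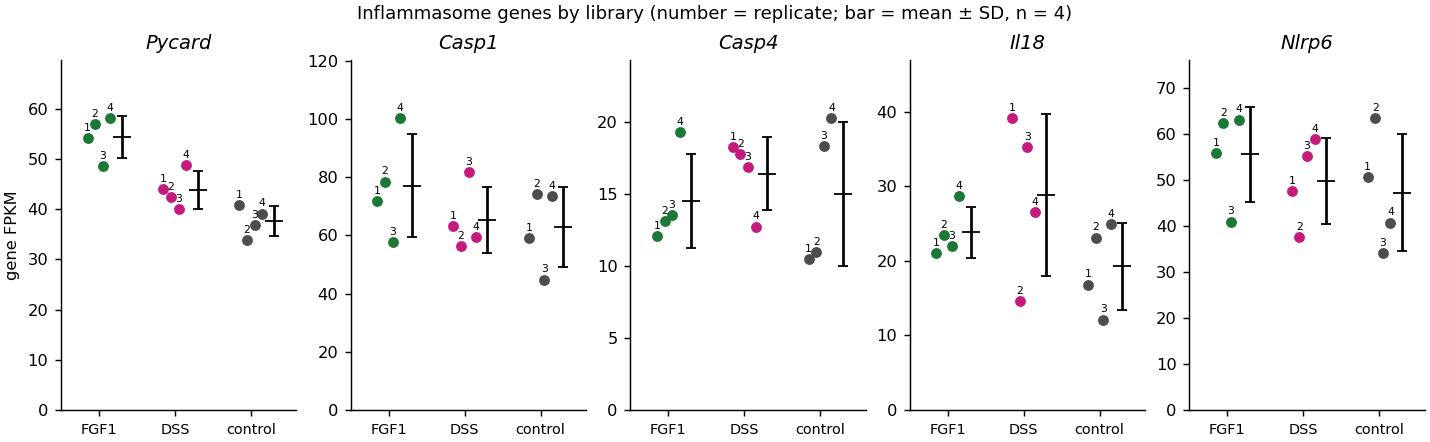
Gene FPKM (vertical axis, linear, from 0) of the 5 members in each library, by group; numbers are replicates and bars give mean ± SD over 4 libraries. The 4 FGF1 values of Pycard lie above all control values, while for the other members the 3 groups overlap.

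Nlrp6, the sensor, had 55.8, 62.3, 40.9 and 63.0 FPKM in FGF1 1 to 4, 47.5, 37.5, 55.1 and 58.8 in DSS 1 to 4, and 50.5, 63.3, 34.1 and 40.7 in control 1 to 4. The groups overlapped, and each held both low and high libraries. The log2 fold change was 0.16 (95% interval -0.29 to 0.60, adjusted p = 0.797) in FGF1 against DSS, 0.25 (-0.20 to 0.69, adjusted p = 0.643) in FGF1 against control and 0.09 (-0.35 to 0.54, adjusted p = 0.819) in DSS against control, all from limma. Smooth muscle marker RNA was high where this gene was low: the lowest Nlrp6 values included FGF1 3, control 3 and control 4, whose smooth muscle scores (the mean log2(FPKM + 1) of 7 markers) were the 3 highest at 9.48, 9.71 and 9.30. DSS 2, also low in Nlrp6, scored 7.50. The score ran from 6.79 to 9.48 in FGF1, from 5.79 to 7.63 in DSS and from 8 to 9.71 in control. With that score in the model the log2 fold change of DSS against control was -0.42 (adjusted p = 0.274, limma), opposite in sign. The DSS and control scores did not overlap, so that fit cannot tell muscle RNA and group apart. The part of muscle RNA in the result was not tested further.

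Pycard, the adaptor, had 54.2, 56.9, 48.7 and 58.1 FPKM in FGF1 1 to 4, 44.0, 42.5, 40.01 and 48.8 in DSS 1 to 4, and 40.8, 33.9, 36.8 and 39.1 in control 1 to 4. Every FGF1 library was above every control library, and FGF1 3 fell just under DSS 4. Groups did not overlap in either direction for 10.3% of all genes in FGF1 against control. The log2 fold change of FGF1 against control was 0.52 ± 0.10 (SE; 95% interval 0.31 to 0.73), with an unadjusted p of 1.47e-04 and an adjusted p of 0.0706 (limma), so it missed the threshold. Without FGF1 3 the value was 0.57 and passed (adjusted p = 0.0471), and with no filter on low genes it was 0.52 and passed (adjusted p = 0.0454). In these settings calls over all genes rose from 10 to 83 and to 50, in that order. The other 27 of 29 alternatives did not pass. FGF1 against DSS gave 0.31 ± 0.10 (adjusted p = 0.224), and DSS against control 0.21 ± 0.10 (adjusted p = 0.17). The last value was 1.09 with start-event transcripts and 0.10 with the smooth muscle score in the model, and passed in neither. The start-event sum holds the minor Pycard-202 in 11 libraries but the abundant Pycard-201, at 40.01 FPKM, in DSS 3. The 1.09 therefore does not compare the same transcript between groups.

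Pycard varied least within groups, with an SE of 0.10 on its log2 fold changes, against 0.20 for Casp1 and Nlrp6, 0.22 for Casp4 and 0.28 for Il18. Epithelial scores (11 tested markers) ran from 8.58 to 8.78 in FGF1, 8.44 to 8.75 in DSS and 8.41 to 8.49 in control. Set against that score in the same library, Pycard was 0.283 log2 units higher in FGF1 than in control, again without overlap (exact two-sided permutation p = 0.0286, the smallest that 4 against 4 allows; adjusted p = 0.429 over 15 tests). None of the 15 tests of this kind passed after adjustment. Pycard lies on the minus strand at chr7:127989708-127993867 (GRCm38), where 599 bases overlap Gm45205 on the other strand.

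Casp1, the central protease, had 71.9, 78.4, 57.7 and 100.2 FPKM in FGF1 1 to 4, 63.1, 56.3, 81.6 and 59.5 in DSS 1 to 4, and 59.1, 74.2, 44.8 and 73.4 in control 1 to 4. FGF1 4 was the highest and control 3 the lowest library, and the groups overlapped. The log2 fold change was 0.23 (95% interval -0.20 to 0.65) in FGF1 against DSS, 0.29 (-0.14 to 0.72) in FGF1 against control and 0.06 (-0.36 to 0.49) in DSS against control, with adjusted p-values of 0.681, 0.547 and 0.875 from limma. Of the 10 pairs of members, Casp1 and Nlrp6 were the most alike over the 12 libraries (Pearson r = 0.739, permutation p = 0.00544, adjusted p = 0.0544; Spearman rho = 0.741, permutation p = 0.00884, adjusted p = 0.078). Without control 3 and FGF1 4, the libraries farthest from the median of Casp1, r was 0.548. With group means removed it was 0.699, and Casp1 and Il18 were then the most alike pair, at 0.717. No pair passed after adjustment.

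Casp4, which encodes mouse caspase-11, starts 1562 bases after the end of Casp1 on the plus strand of chromosome 9 (Casp1 at chr9:5298517-5307265, Casp4 at chr9:5308828-5336783). It had 12.1, 13.1, 13.5 and 19.3 FPKM in FGF1 1 to 4, 18.3, 17.8, 16.9 and 12.7 in DSS 1 to 4, and 10.49, 10.9, 18.3 and 20.2 in control 1 to 4. Control split into a low and a high pair, and both other groups lay inside its range. The log2 fold change was -0.18 (95% interval -0.65 to 0.30, adjusted p = 0.778) in FGF1 against DSS, -0.01 (-0.49 to 0.46, adjusted p = 0.987) in FGF1 against control and 0.16 (-0.31 to 0.64, adjusted p = 0.682) in DSS against control (limma).

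Il18, the cytokine, had 21.1, 23.5, 22.0 and 28.7 FPKM in FGF1 1 to 4, 39.1, 14.6, 35.3 and 26.6 in DSS 1 to 4, and 16.8, 23.1, 12.1 and 24.9 in control 1 to 4. The FGF1 libraries lay close together, while DSS held both the highest value, in DSS 1, and a value below 3 of the controls, in DSS 2. The log2 fold change was -0.19 (95% interval -0.81 to 0.43, adjusted p = 0.826) in FGF1 against DSS, 0.33 (-0.28 to 0.95, adjusted p = 0.655) in FGF1 against control and 0.52 ± 0.28 (SE; -0.10 to 1.14, adjusted p = 0.262) in DSS against control (limma). Without DSS 2 the last value was 0.81 and passed the threshold (adjusted p = 0.0422), as it did in only 1 of 29 alternatives. The value depended on which transcripts were summed. With the top transcript alone, which control 2 lists at 0, it was 1.60 in FGF1 against control (adjusted p = 0.434) and 1.92 in DSS against control (adjusted p = 0.141). With transcripts listed in all libraries it was -0.93 and -0.59 in the same order. That setting drops Il18-202 and the top transcript, Il18-204. It keeps only Il18-201 and Il18-203, both highest in control 2 (16.98 and 6.153 FPKM).

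The neutrophil marker score was highest in the same libraries as Il18. It was 5.56 in DSS 1 and 4.05 in DSS 3, and ran from 1.12 to 2.67 in FGF1, from 0.87 to 5.56 in DSS and from 0.05 to 1.18 in control. Only 2 of its 7 markers, S100a9 and Ly6g, passed the filter. Ly6g had 4.164 FPKM in control 3 and 6.359 in FGF1 3, where S100a9 was 0. Of the markers under the filter, S100a8, Retnlg and Cxcr2 were also highest in DSS 1 and DSS 3. Csf3r was not, with 0.052 FPKM in DSS 3 and its highest value, 0.222, in FGF1 4. Mpo was at or near 0 in every library. The part of neutrophils in the Il18 values was not tested.

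**Figure D2:**
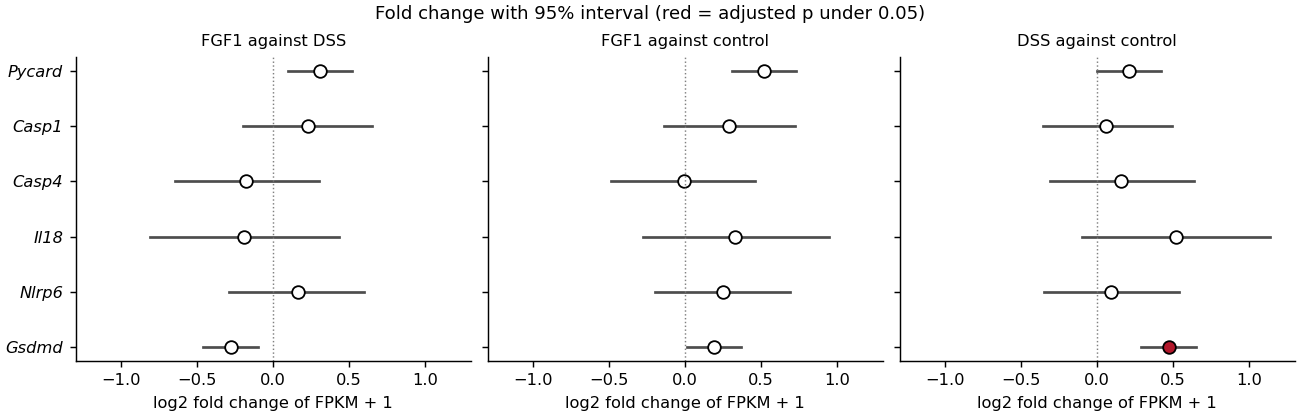
Log2 fold change of FPKM + 1 (horizontal axis) with 95% intervals for the 5 members and Gsdmd in the 3 comparisons. The filled point, Gsdmd in DSS against control at 0.47, is the only called value among those drawn.

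A single transcript carried most of Pycard (Pycard-201, 95.9% to 100% of gene FPKM), of Nlrp6 (Nlrp6-203, 98.8% to 99.7%) and of Casp1 (Casp1-201, 80.1% to 90.3%). The other 4 Casp1 transcripts are not in GENCODE vM21 and together held 12.8% ± 3.4 in FGF1, 14.5% ± 4.2 in DSS and 11.9% ± 1.7 in control (SD, n = 4 each).

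Casp4-201, the main coding transcript, held 77.5%, 74.9%, 68.2% and 73.3% of Casp4 FPKM in FGF1 1 to 4, 72.2%, 68.2%, 74.4% and 78.6% in DSS 1 to 4, and 61.1%, 48.3%, 53.4% and 63.6% in control 1 to 4. Every control library was below every FGF1 and DSS library. How many of all genes have a main transcript whose share separates in this way was not determined. For gene levels, groups did not overlap for 10.3% of all genes in FGF1 against control and 16.9% in DSS against control. The difference was 16.9 percentage points in FGF1 against control and 16.7 in DSS against control, each with an exact two-sided permutation p of 0.0286, the smallest possible, and an adjusted p of 0.107 over 15 tests, so neither passed. These shares were compared after their values had been seen. The 3 transcripts annotated as retaining an intron held 22.7% ± 1.2 in FGF1, 21% ± 3.9 in DSS and 30.2% ± 2.8 in control (SD, n = 4 each). The 2 annotated as targets of nonsense-mediated decay, a pathway that degrades transcripts with an early stop, held 3.6% ± 3.4 in FGF1, 5.0% ± 0.8 in DSS and 13.0% ± 9.0 in control, where control 2 reached 25.4%.

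The exon that some Casp4 transcripts skip has 98 bases and lies at chr9:5322820-5322917 (plus strand). It is shown because Casp4-201 holds it and both transcripts annotated as decay targets lack it.
Casp4-201 exon: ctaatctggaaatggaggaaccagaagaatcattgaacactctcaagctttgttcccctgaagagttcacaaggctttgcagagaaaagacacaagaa

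Il18-204, the main transcript of Il18, held 89.8%, 74.5%, 91.0% and 75.4% in FGF1 1 to 4, 84.1%, 92.6%, 95.4% and 90.7% in DSS 1 to 4, and 66.0%, 0.0%, 67.4% and 70.6% in control 1 to 4. All controls were again below all other libraries, with no share of all genes determined to set beside it, and control 2 listed Il18-204 at 0. The share differed by 31.7 points in FGF1 against control and by 39.7 in DSS against control (exact permutation p = 0.0286 each, adjusted p = 0.107 over the same 15 tests). Without control 2 the differences were 14.7 and 22.7 points. In control 2 the gene's RNA was listed instead as Il18-201, with 16.98 FPKM, and Il18-203, with 6.153 FPKM. Il18-201 was under 0.9 FPKM in the other 11 libraries.

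Il18-201 and Il18-202 have 702 bases each and differ at 7 of them, all within a 12-base coding exon. Il18-201 takes that exon from chr9:50577537-50577548, and Il18-202, Il18-203 and Il18-204 take it from chr9:50576694-50576705 (GRCm38, plus strand). They are shown because this exon sets Il18-201, listed at a high level in control 2, apart from the other transcripts. The exon is in capitals, with 21 bases on either side.
Il18-201: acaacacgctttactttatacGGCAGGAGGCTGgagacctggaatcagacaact
Il18-202: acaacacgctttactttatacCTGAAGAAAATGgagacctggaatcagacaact

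Il18-203 lacks a 134-base exon at chr9:50579287-50579420, and its annotated coding sequence has 234 bases, against 576 in the other 3 transcripts. Its share was 1.6% to 3.2% in FGF1, 1.8% to 7.1% in DSS and 2.0% to 26.6% in control, with the top value in control 2. The skipped exon is shown since it separates the short coding form from the full one.
Il18-204 exon: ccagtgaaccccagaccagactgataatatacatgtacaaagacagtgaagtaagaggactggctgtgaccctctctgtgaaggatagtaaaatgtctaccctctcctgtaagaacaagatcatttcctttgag

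**Figure D3:**
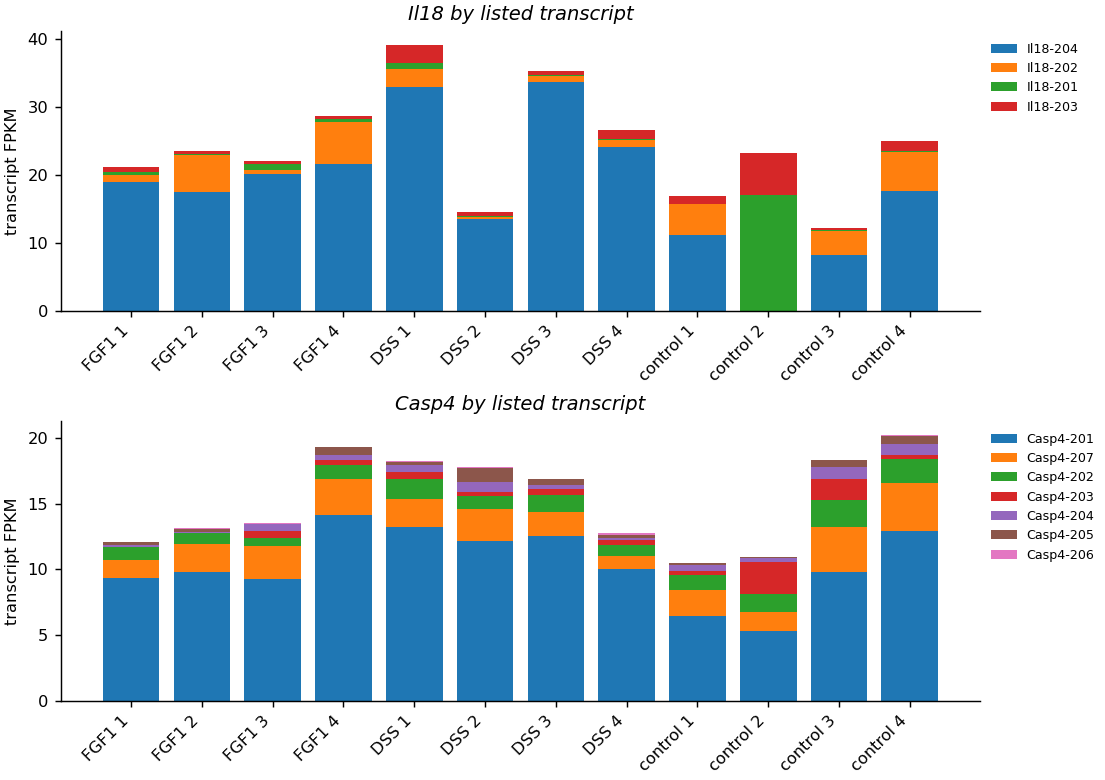
FPKM (vertical axis, linear) of each listed transcript of Il18 (top) and Casp4 (bottom), stacked by library, with FGF1, DSS and control from left to right. Control 2 stands apart in Il18, where Il18-201 with 16.98 FPKM takes the place that Il18-204 has elsewhere.

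The rest of the pathway was read from lists of sensors, regulators, pore formers, cytokine genes, and inducers with interferon-linked genes, 57 genes in all, of which 44 were tested. FGF1 against DSS called 0 of 44 (limma), and 5, or 11.4%, had an unadjusted p under 0.05, beside 12.4% of all genes. FGF1 against control called 0 of 44, and 7, or 15.9%, had an unadjusted p under 0.05, beside 13.9%. DSS against control called 2 higher, beside 2.23% of all genes, and 4 lower, beside 10.1%. The median log2 fold change of the 44 in DSS against control was 0.02, beside -0.07 over all genes. Without DSS 3 the count of called pathway genes fell to 2, and it was 3 without DSS 4 or without control 4. Calls over all genes also fell in these fits, from 1549 to 697, 827 and 724, in that order. Over all fits that left a library out, the pathway count ran from 2 to 9, so it also rose. When the smooth muscle score entered the model, the pathway count was 0 and the count over all genes was 33. That score ran from 5.79 to 7.63 in DSS and from 8 to 9.71 in control, without overlap. This fit therefore cannot tell muscle RNA and group apart. The log2 fold changes kept their sign in it: Gsdmd 0.45, Naip5 0.36, Gbp2 -0.74, Gbp3 -0.70, Il1r1 -1.24 and P2rx7 -1.05.

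Gsdmd, which encodes the pore protein that these caspases cut, had 76.0, 69.4, 66.9 and 75.6 FPKM in FGF1 1 to 4, 93.5, 90.1, 81.1 and 85.6 in DSS 1 to 4, and 62.3, 63.2, 59.5 and 66.7 in control 1 to 4. The 3 groups did not overlap, with DSS highest, FGF1 between and control lowest. Gsdmd rose in DSS against control by 0.47 ± 0.08 on the log2 scale (SE, adjusted p = 0.00605, limma), a call kept in 28 of 29 alternatives and lost with the smooth muscle covariate (0.45, adjusted p = 0.0984). FGF1 against DSS gave -0.28 ± 0.08 (adjusted p = 0.201), and FGF1 against control 0.19 ± 0.08 (adjusted p = 0.33). The groups did not overlap in either direction for 6.28% of all genes in FGF1 against DSS, 10.3% in FGF1 against control and 16.9% in DSS against control.

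Among the sensors, Naip5, a receptor for bacterial flagellin with near-identical copies between which reads could be split, had 20.6, 22.1, 18.1 and 20.1 FPKM in FGF1 1 to 4, 17.9, 16.7, 19.8 and 20.9 in DSS 1 to 4, and 14.0, 12.02, 14.5 and 14.8 in control 1 to 4. Control lay below both other groups, which overlapped. Groups did not overlap for 10.3% of all genes in FGF1 against control and 16.9% in DSS against control. Naip5 rose in DSS against control by 0.42 ± 0.10 (SE, adjusted p = 0.0243, limma), which did not pass without control 2 (adjusted p = 0.0592), DSS 3 (0.0724) or DSS 4 (0.068). FGF1 against control gave 0.52 ± 0.10 (adjusted p = 0.0887), and 0.57 without FGF1 3 (adjusted p = 0.0495). Its partner Nlrc4 averaged 9.97 ± 0.961 FPKM in FGF1, 11.1 ± 1.88 in DSS and 8.74 ± 0.605 in control (SD, n = 4 each), with 0.31 ± 0.12 in DSS against control (adjusted p = 0.124, limma). Nlrc4 passed there with median-of-ratios scaling (0.43, adjusted p = 0.0242) and quantile normalization (0.44, adjusted p = 0.0271).

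Aim2, a sensor of DNA in the cytosol, had 28.1, 5.35, 28.4 and 11.3 FPKM in FGF1 1 to 4, 6.54, 4.66, 3.28 and 2.05 in DSS 1 to 4, and 4.83, 4.79, 23.8 and 3.93 in control 1 to 4. FGF1 1, FGF1 3 and control 3 stood far above the other libraries, and the groups overlapped. FGF1 against DSS gave a log2 fold change of 1.73 ± 0.58 (SE, adjusted p = 0.254, limma), which missed the threshold. It was 0.50 with start-event transcripts or with transcripts listed in all libraries, and 0.93 with the smooth muscle score in the model. Nlrp3, a sensor best known from myeloid cells, was at or below 0.119 FPKM in every library, and Il1b, the other main caspase-1 cytokine, ran from 0.034 to 1.65 FPKM in FGF1, 0.113 to 3.19 in DSS and 0.178 to 0.947 in control. Neither Nlrp3 nor Il1b passed the filter.

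The genes called lower in DSS against control were Gbp2, Gbp3, Il1r1 and P2rx7. Gbp2 and Gbp3 encode interferon-induced guanylate-binding proteins, which help expose bacterial lipopolysaccharide to caspase-11 and belong to a family of similar copies. Gbp2 averaged 4.35 ± 1.05 FPKM in FGF1, 1.79 ± 0.430 in DSS and 4.73 ± 1.15 in control (SD, n = 4 each). Its log2 fold change was -1.03 ± 0.19 in DSS against control (adjusted p = 0.00643) and 0.93 ± 0.19 in FGF1 against DSS (adjusted p = 0.0833, limma). Neither comparison overlapped, as for 16.9% of all genes in DSS against control and 6.28% in FGF1 against DSS. The Gbp2 call was kept in 26 of 28 alternatives. It was lost with the smooth muscle covariate (-0.74, adjusted p = 0.14) and without DSS 3 and 4 (-0.91, adjusted p = 0.0892, limma).

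Gbp3 fell by 0.90 on the log2 scale (adjusted p = 0.0199, limma), and did not pass without control 3 (adjusted p = 0.0513), control 4 (0.0629), DSS 3 (0.0599) or DSS 4 (0.0556), with the top transcript (-0.54, adjusted p = 0.378) or with quantile normalization (-0.51, adjusted p = 0.0657). Its value reached -1.71 with a pseudocount of 0.1. Gbp3 had 1.76 to 2.355 FPKM in control and 0.188 to 1.415 in DSS, where only DSS 1 reached 1 FPKM. Il1r1, a receptor for interleukin-1, fell by 0.96 (adjusted p = 0.0481) and stayed called in 8 of 28 alternatives. P2rx7, an ATP-gated channel, fell by 0.80 (adjusted p = 0.0467) and stayed called in 3 of the 19 alternatives in which it was tested, with values from -1.62 to -0.35. In the same comparison 6 of 6 tested fibroblast markers, 4 of 4 endothelial and 6 of 9 monocyte and macrophage markers were called lower. So were 2 of 7 smooth muscle and 2 of 4 B and plasma cell markers, beside 10.1% of all genes. Median log2 fold changes of these lists were -2.66, -1.54, -1.42, -1.81 and -0.63, in that order. Of the tested epithelial (11), neutrophil (2) and T cell (2) markers, 0 were called. The smooth muscle covariate ended the calls of all 4 genes. With the epithelial covariate the calls of Il1r1 (-1.12, adjusted p = 0.0733) and P2rx7 (-0.95, adjusted p = 0.0656, limma) were lost, and those of Gbp2 and Gbp3 were kept. The part of these cell types in the lower values of the 4 genes was not tested beyond these covariates.

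**Figure D4:**
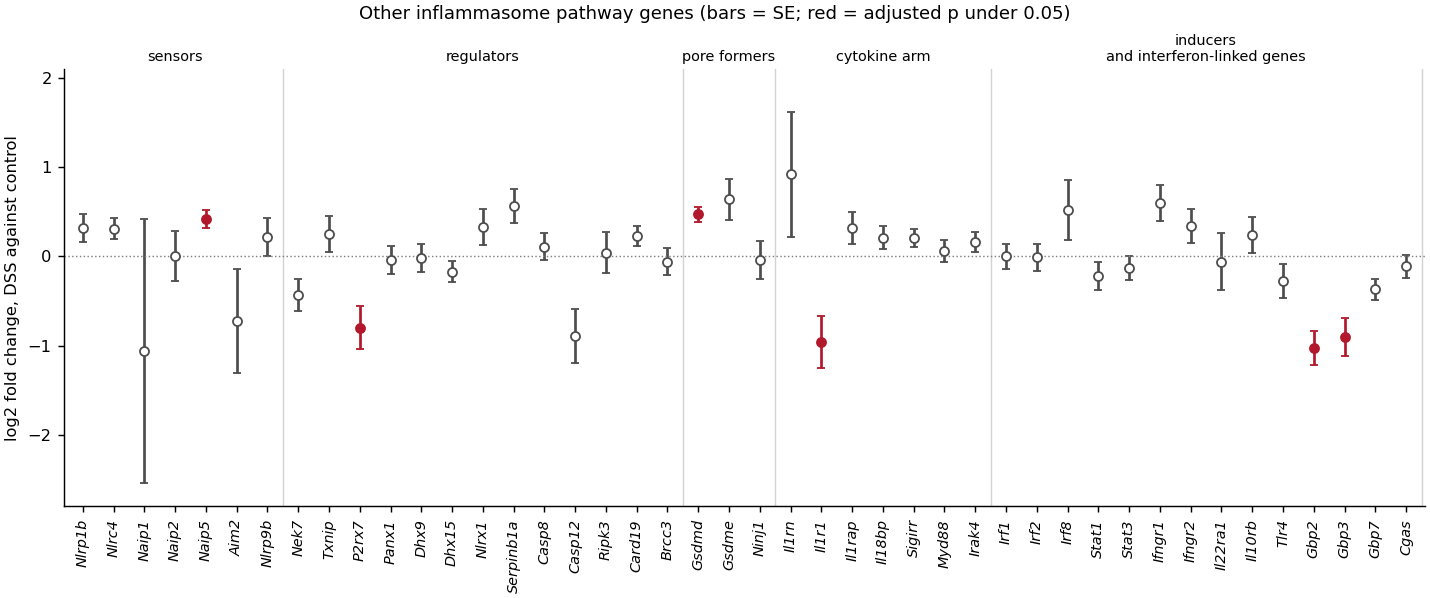
Log2 fold change of DSS against control (vertical axis) for the 44 tested pathway genes by list, with SE bars; filled points passed an adjusted p under 0.05. Gsdmd and Naip5 are the filled points above 0, and P2rx7, Il1r1, Gbp2 and Gbp3 those below it.

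The genes whose levels over the 12 libraries were most like each member's were sought among all genes tested, by Pearson r of log2(FPKM + 1), as a description with no test. Il18 was most like Reg3b, which encodes an antimicrobial lectin of the gut epithelium, at r = 0.935. Reg3b had 1042, 2987, 725 and 4350 FPKM in FGF1 1 to 4, 4772, 416, 6224 and 3503 in DSS 1 to 4, and 839, 1405, 165 and 3174 in control 1 to 4. Both genes were high in DSS 1 and DSS 3 and lowest in control 3. Leprot (0.928) and Aph1a (0.922) came next for Il18.

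Nlrp6 was most like Strbp (r = 0.973), Cables1 (0.934) and Acadm (0.918), the last an enzyme of fatty acid oxidation. Casp1 was most like Fggy (0.881), Naxe (0.872) and Zup1 (0.848), Casp4 like Gm16015 (0.905), Slc13a2 (0.867) and Zbtb45 (0.842), and Pycard like Gm6206 (0.899), Tdrd3 (0.866) and Tmsb10 (0.860). With group means removed, Strbp remained among the top 3 of Nlrp6 (0.972), Naxe of Casp1 (0.899) and Slc13a2 of Casp4 (0.935). The top 3 of Il18 then changed entirely, to Rit1 (0.952), Bco2 (0.945) and Mbtd1 (0.943), and Reg3b was no longer among them. Bco2 lies on the strand opposite Il18 (chr9:50554827-50581840) and shares 355 bases with it, and since strand was not given in the sources used here, reads of the shared stretch cannot be told apart. Of the Il18 transcripts, Il18-203 alone has an exon in that stretch. Tex12, also on the opposite strand, lies inside the span of Il18 and shares 4507 bases with it.

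**Figure D5:**
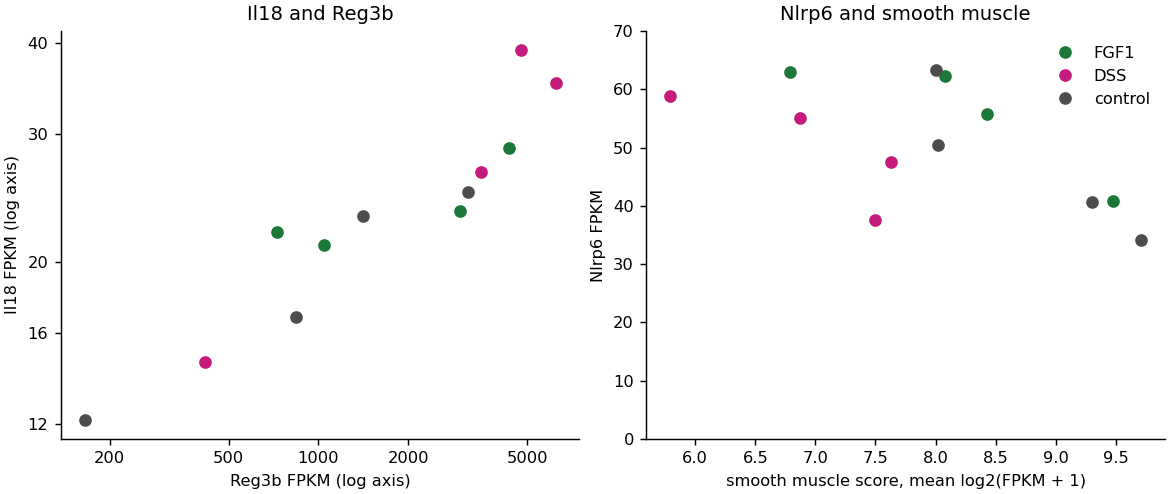
Left, Il18 FPKM against Reg3b FPKM by library, both on log axes; right, Nlrp6 FPKM (linear axis from 0) against the smooth muscle score. Il18 is high where Reg3b is high in all 3 groups, and the 3 libraries with the highest smooth muscle scores have Nlrp6 between 34.1 and 40.9 FPKM.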

How the data were processed

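RNA of mouse colon was enriched with oligo(dT) beads from 5 µg of total RNA, per the labels. The submitters' processing notes name build GRCm38 and, with no roles, StringTie 1.3.4d, HISAT2 2.0.4, cutadapt 1.9 and edgeR (its version is not given in the sources used here). The authors deposited transcript FPKM beside each structure event (187383 rows, 74659 transcripts), with no read counts, so depth and counting error are unknown. Libraries listed 45795 to 54313 transcripts, with the fewest in DSS 3 (45795) and DSS 4 (47597). These libraries also had the fewest genes at 1 FPKM or more (11279 and 11190). A transcript not listed was given 0, which can also be a failed assembly, so this limit weighs most on the DSS group. Only transcripts that enter an event are in the table, so a gene's sum can leave RNA out.

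Gene sums were tested with limma 3.58.1 in R 4.3.3 (trend, two-sided, 1 model over 12 libraries) on log2(FPKM + 1), which understates changes of low genes. The 12578 genes with 1 FPKM or more in 4 or more libraries were tested; adjustment was by Benjamini-Hochberg over all of them, and calls were made under 0.05. The script was tested on simulated data. Exact permutation tests used scipy 1.17.1. Coordinates, transcripts and exon sequences came from GENCODE vM21. Members, gene lists and tests were chosen with earlier results of these data known. Named genes were the members, pathway genes called in a comparison (up to 8 by smallest adjusted p), Gsdmd, Il1b, Nlrp3, Nlrc4 and Aim2, and for each member the 3 genes with the highest r. Alternatives changed the gene sum, pseudocount, filter, scaling, model, covariates and libraries. Protein sequences were not used here.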

Additional observations from a re-analysis of the deposited data

Results flagged for a closer look

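In 87 groups of 4 libraries, the highest or lowest value was set against its neighbours with Dixon's limit, which chance passes in about 1 of 20 groups; 4 values passed. Aim2 in control 3 had 23.79 FPKM, far from the 4.833, 4.785 and 3.932 of the other controls. Casp4-201 in FGF1 4 had 14.14 FPKM, against 9.227 to 9.821 in the other FGF1 libraries. Il18-201 in control 2 had 16.98 FPKM, against 0.1309 to 0.1982 in the other controls, and in DSS 1 it had 0.8302 FPKM, against 0.1692 to 0.1872 in the other DSS libraries.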

How the results depend on the processing

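FPKM without read counts leave the precision of single low values unknown, and 4 libraries a group left the 95% interval of Il18 in DSS against control at -0.10 to 1.14. Of 29 alternatives, Pycard in FGF1 against control stayed between 0.47 and 0.59, and from 0.474 to 0.574 without 1 library, and passed in 2; with no filter it was 0.522. Libraries of the same number showed little sign of pairing: 3 of 12 same-number pairs correlated above 0.1 (range -0.217 to 0.399). The highest value was that of FGF1 3 and control 3. Such correlations cannot exclude pairing. With the replicate block no member passed, and the genes called were 2 in FGF1 against DSS, 1 in FGF1 against control and 1028 in DSS against control, of them 3 pathway genes; it ended the calls of Naip5 (adjusted p = 0.0554), Gbp3 (0.0546) and P2rx7 (0.0703, limma).

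Genes called in FGF1 against DSS (7) were 1 with start-event transcripts, 4 with transcripts listed in all libraries, 16 with the filter at 5 FPKM, 15 with median-of-ratios scaling, 3 with a fixed sum, quantile normalization or 2 groups only, 0 with either covariate, 0 without DSS 3 and 4, 2 without control 3 and FGF1 3, and 0 to 43 without 1 library. In FGF1 against control (10) they were 1 with start-event transcripts, with transcripts listed in all libraries or with pseudocount 0.5, 0 with pseudocount 0.1, the filter at 5 FPKM or the epithelial covariate, 50 with no filter, 20 with a fixed sum, 24 with quantile normalization, 38 with 2 groups only, 2 with the smooth muscle covariate, 38 without DSS 3 and 4, 20 without control 3 and FGF1 3, and 0 to 83 without 1 library (pathway genes 0 to 1). In DSS against control (1549) they were 727 with start-event transcripts, 844 with the top transcript, 922 with transcripts listed in all libraries, 681 with the filter at 5 FPKM, 33 and 792 with the smooth muscle and epithelial covariates, 185 without DSS 3 and 4, 915 without control 3 and FGF1 3, and 697 to 1982 without 1 library. Pathway genes called there (6) were 3 with the top transcript, transcripts listed in all libraries or 2 groups only, 2 with the filter at 5 FPKM, 0 with the smooth muscle covariate, 1 without DSS 3 and 4, and 2 to 9 without 1 library.

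Members whose sign turned had small or uncalled values, and the cause was not tested except where named. Pycard in FGF1 against DSS was -0.53 with start-event transcripts, which keep Pycard-202 in 11 libraries and Pycard-201 in DSS 3. Il18 was 0.043 in FGF1 against DSS with the epithelial covariate. With start-event transcripts, which keep only Il18-203, it was -0.79 in FGF1 against control and -0.24 in DSS against control. With transcripts listed in all libraries, which drop Il18-204 and Il18-202, it was -0.93 and -0.59 in the same order. Without 1 library Il18 in DSS against control ran from 0.33 to 0.81. Casp4 in FGF1 against control was 0.33 with the top transcript, 0.10 with transcripts listed in all libraries, 0.055 with median-of-ratios scaling or the smooth muscle covariate, 0.019 with quantile normalization, 0.12 without control 3 and FGF1 3, and -0.15 to 0.14 without 1 library. In DSS against control, Casp1 was -0.28 and Nlrp6 -0.42 with the smooth muscle covariate, -0.047 and -0.118 without DSS 3 and 4, -0.087 and -0.047 without control 3 and FGF1 3, and -0.087 to 0.151 and -0.047 to 0.244 without 1 library. Aim2 in DSS against control was 0.44 with the smooth muscle covariate.

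Relative to the epithelial score without keratins, Pycard (-0.002) and Casp4 (-0.052) in DSS against control and Nlrp6 (-0.014) in FGF1 against control turned sign. Without 1 library these relative values ran, in FGF1 against DSS, from -0.024 to 0.233 for Casp1 and -0.157 to 0.172 for Nlrp6; in FGF1 against control, from -0.088 to 0.181 for Casp1, -0.086 to 0.235 for Il18 and -0.119 to 0.160 for Nlrp6; and in DSS against control, from -0.192 to 0.075 for Casp1, -0.109 to 0.208 for Casp4 and -0.152 to 0.166 for Nlrp6. Without 1 library the Casp4-201 share differed by -1.5 to 1.9 points in FGF1 against DSS, and the Il18-204 share by 14.7 to 38.2 in FGF1 against control and 22.7 to 46.2 in DSS against control; these alternatives were chosen after seeing the data.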

Other observations

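The 300-base RefSeq promoter windows of the members (build GRCm38.p6) were searched once, on both strands, for 4 short motifs chosen without a prior list. These were TTTATGG, bound by CDX factors, the interferon-stimulated response element, TTCNNNGAA, the gamma-activated site, and CCGGAAGT, bound by ETS factors. No window held any of them. Among all 32851 windows of the table, 2.75%, 3.44%, 8.3% and 3.89% held them in that order. The absence says only that these letters are not in those windows.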
